A study of Mus musculus with 4 samples.

Results

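The genes described here encode 9 nuclear regulators that act when the gonad first forms: Nr5a1, Wt1, Gata4, Zfpm2, Lhx9, Emx2, Cbx2, Nr0b1 and Six4. They were chosen by symbol, and each was found once among the 20299 genes listed for every library. The early gonad grows from the coelomic epithelium over the mesonephros as a primordium that is alike in both sexes. In mice, loss of Nr5a1, Wt1, Lhx9 or Emx2 leaves the fetus without gonads, because the primordium forms and then regresses or does not grow. NR5A1, also called SF1, is a nuclear receptor that later drives steroid synthesis and anti-Müllerian hormone. WT1 is a zinc finger protein, GATA4 binds GATA sites together with its cofactor FOG2 (encoded by Zfpm2), LHX9 and EMX2 are homeodomain proteins, CBX2 is a Polycomb subunit, NR0B1 (DAX1) is an orphan receptor that opposes NR5A1, and SIX4 is a homeodomain protein that acts upstream of Nr5a1 and Zfpm2.

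RNA was measured in germ cells and in somatic cells sorted from male and female mouse gonads at 15.5 dpc (days post coitum), by strand-specific paired-end sequencing of total RNA depleted of ribosomal RNA. Each of the 4 groups has 1 library. By this age the testis and the ovary have taken separate paths. The fetuses of all 4 groups came from CF1 mothers and TgOG2 fathers, so every library carries the same cross, in which the Oct4 promoter drives green fluorescent protein in germ cells. GFP-positive cells were sorted as germ cells and GFP-negative gonad cells as somatic cells, so the somatic libraries mix all other gonad cell types. The labels give no number of animals and no repeat library. Levels are in SPM, the deposited signal per 1000000 after scaling between libraries, and depth was 17.5 to 24.9 M fragments, M being 1000000.

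By their sums, germ cell, stroma and erythroid markers matched the labels of the sort, but not all marker lists did. The 9 germ cell marker genes summed to 6987 SPM in male and 4771 SPM in female germ cells, against 42.9 SPM in the male somatic and 11.1 SPM in the female somatic library. The 10 stroma markers summed to 221 SPM in the male germ and 62.0 SPM in the female germ library, against 17020 and 6330 SPM in the somatic libraries. The 9 erythroid markers summed to 292 and 93.2 SPM in germ cells, against 30210 and 11190 SPM in somatic cells, so blood was part of the somatic fraction. Hbb-b1 (15790 SPM) and Hba-a1 (13840 SPM) made up most of the male somatic sum. The 6 erythroid markers at 5 SPM or more in male somatic cells were at least 4-fold lower in male germ cells. Klf1 was not lower there, at 0.695 SPM in male germ and 0.659 SPM in male somatic cells. The 8 endothelial markers separated less, at 67.2 SPM in male and 31.25 SPM in female germ cells, against 202 and 269 SPM in somatic cells. The 6 mesonephric duct markers summed to 43.3 SPM in male germ and 4.47 SPM in male somatic cells. In females they were nearly level, at 24.1 and 24.6 SPM. No germ cell marker was listed at 0 in a somatic library. In bulk libraries such as these, fewer cells of a type and less RNA per cell cannot be told apart.

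Germ cells were first set against somatic cells. Nr5a1, Wt1, Gata4, Zfpm2 and Lhx9 fell in germ cells by more than 5 on the log2 scale, Emx2 and Nr0b1 were also low there without passing the test, and Cbx2 and Six4 did not pass and stood at 8.74 SPM or more in both germ libraries. Differences were fitted with limma on log2(SPM + 0.5) over 14148 genes, with the 2 sexes as the only samples of each cell type (n = 2 libraries per cell type). All 9 genes met the filter of 1 SPM in at least 2 libraries, Nr0b1 through its somatic libraries alone. Emx2 in male germ cells (0.210 SPM) and Zfpm2 in female germ cells (0.956 SPM) also lay below 1 SPM. By this test 5 of the 9 were lower in germ cells and 0 higher, where 5.56% of all tested genes were called lower, 2.50% higher and 8.06% in either direction. In 7 of the 9, both germ libraries lay below both somatic libraries, which was so for 33.8% of all tested genes. The median log2 difference was -5.19 over the 9 genes and -0.11 over all genes tested.

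Nr5a1 (mm9 chromosome 2, 38548179 to 38570062, minus strand) stood at 6.56 SPM in male and 6.23 SPM in female germ cells, against 321 SPM in male and 278 SPM in female somatic cells. The groups do not overlap and the sexes lie close together within each. Its log2 difference was -5.44 ± 0.44 (SE; limma adjusted p = 0.0328), the smallest error of the 9. In GENCODE vM21 its exons share no base with those of its antisense gene Nr5a1os. Its neighbour Nr6a1, 8830 bases upstream and encoding the germ cell nuclear factor, stood the other way, at 66.8 SPM in the male germ and 345 SPM in the female germ library, against 7.42 SPM in the male somatic and 8.07 SPM in the female somatic library, without passing (log2 difference 4.21 ± 0.87, limma adjusted p = 0.0513).

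Gata4 (chromosome 14, 63817751 to 63864097, minus strand) stood at 5.43 SPM in the male germ and 7.32 SPM in the female germ library, against 221 SPM in the male somatic and 277 SPM in the female somatic library. Both libraries of each cell type were again close, and Gata4 fell by 5.19 ± 0.47 on the log2 scale (SE; limma adjusted p = 0.0328). Its partner Zfpm2 (chromosome 15, 40486587 to 40936138, plus strand) stood at 1.09 SPM in the male germ and 0.956 SPM in the female germ library, against 62.5 SPM in the male somatic and 61.6 SPM in the female somatic library. The germ values rest on 29 and 16 fragments, and the log2 difference was -5.36 ± 0.63 (limma adjusted p = 0.0328).

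Wt1 (chromosome 2, 104966685 to 105013771, plus strand) stood at 3.37 SPM in the male germ and 4.01 SPM in the female germ library, against 108 SPM in the male somatic and 367 SPM in the female somatic library. The somatic libraries lie well apart and the germ libraries close together. The log2 difference was -5.58 ± 0.74 (limma adjusted p = 0.0347). Lhx9 (chromosome 1, 140721762 to 140744156, minus strand) showed the reverse arrangement, at 3.04 SPM in the male germ and 1.10 SPM in the female germ library, against 168 SPM in the male somatic and 157 SPM in the female somatic library. It had the lowest log2 difference of the 9, -6.10 ± 0.65 (limma adjusted p = 0.0328).

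Emx2 (chromosome 19, 59533179 to 59539847, plus strand) stood at 0.210 SPM in the male germ and 1.91 SPM in the female germ library, against 9.77 SPM in the male somatic and 65.5 SPM in the female somatic library. Female values were the higher ones in both fractions. The male germ value rests on 6 fragments (95% counting interval 0.0826 to 0.490 SPM). Its log2 difference of -4.31 ± 1.19 did not pass (limma adjusted p = 0.0821). Exons of Emx2 share 264 of their 3002 bases with those of the antisense gene Emx2os in GENCODE vM21. No source used here says whether the counting used strand, so reads on the shared bases cannot be told apart.

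Nr0b1 (chromosome X, 83437113 to 83441283, plus strand) was the lowest of the 9 in SPM in female germ cells, with 0.686 SPM in the male germ and 0.355 SPM in the female germ library, against 3.13 SPM in the male somatic and 15.5 SPM in the female somatic library. The germ values rest on 18 and 6 fragments, and its log2 difference of -2.92 ± 0.92 did not pass (limma adjusted p = 0.106). A term for sex, a block that pairs the libraries of the same sex, was then added to the fit. With it Emx2 and Nr0b1 passed as well (limma adjusted p = 0.00232 and 0.0281). This makes 7 of 9 lower, where that fit called 13.8% of all tested genes lower. Its p-values rest mostly on spread shared over all genes (prior degrees of freedom 25.7, against 3.15 without the term). The fit also takes the germ to somatic difference as equal in both sexes, while that of Nr0b1 was -1.61 in males and -4.23 in females. Nr0b1 met the filter through its somatic libraries alone, so its call is no separate support.

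Cbx2 (chromosome 11, 118884342 to 118892584, plus strand) stood at 64.6 SPM in the male germ and 20.2 SPM in the female germ library, against 45.7 SPM in the male somatic and 40.0 SPM in the female somatic library. Male germ cells were the highest library and female germ cells the lowest, with the somatic libraries between them. The log2 difference of -0.24 ± 0.68 did not pass (limma adjusted p = 0.845), and its direction differed between the sexes. Six4 (chromosome 12, 74201245 to 74214232, minus strand) stood at 59.2 SPM in the male germ and 8.74 SPM in the female germ library, against 20.7 SPM in the male somatic and 7.94 SPM in the female somatic library. The male library was the higher one in each fraction, and the log2 difference was 0.81 ± 1.09 (limma adjusted p = 0.654).

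**Figure D1:**
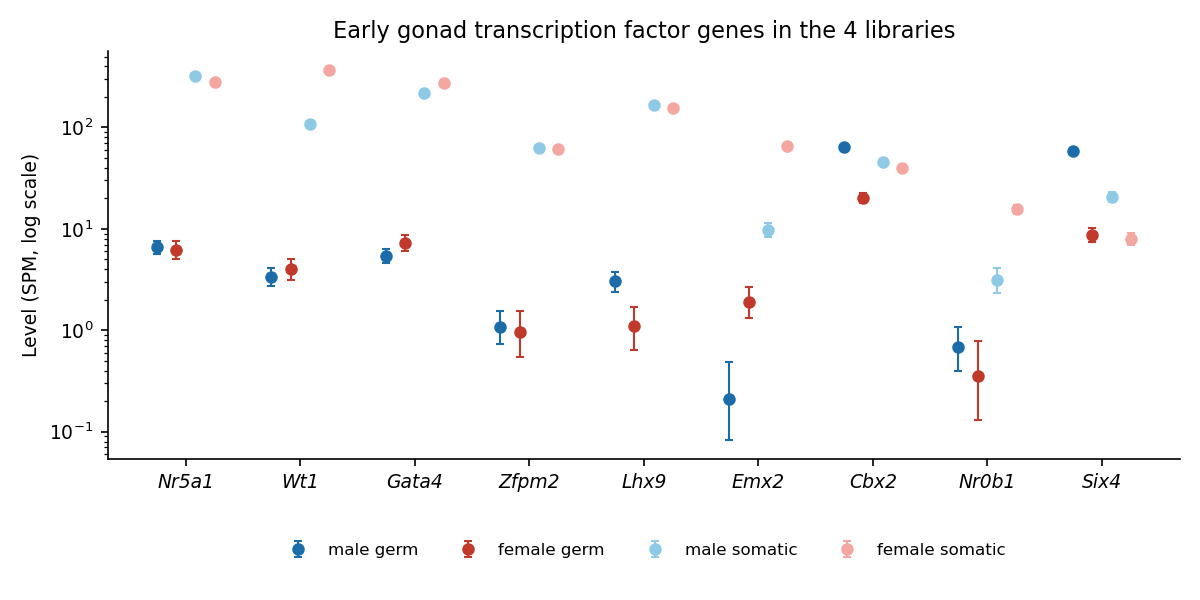
Level of each gene in SPM on a log axis, with 1 point for each of the 4 libraries and bars for the exact Poisson 95% interval of its fragments. The 2 germ points lie far below the 2 somatic points for Nr5a1, Wt1, Gata4, Zfpm2 and Lhx9, but not for Cbx2 and Six4.

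**Figure D2:**
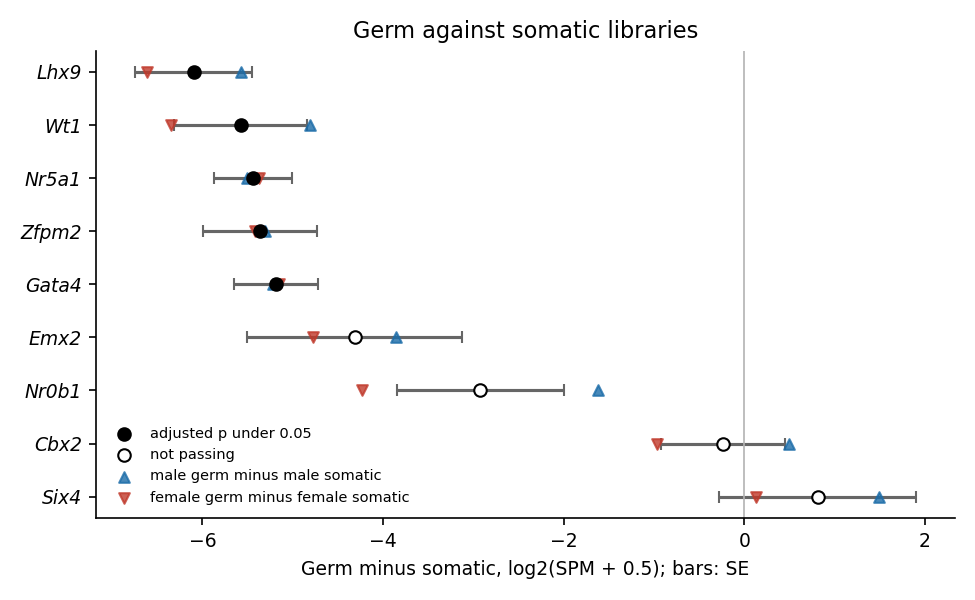
Germ minus somatic difference on the log2(SPM + 0.5) scale, as the limma estimate with its SE (circles, filled where the adjusted p is under 0.05) and within each sex (triangles). The 5 filled circles lie between -6.10 and -5.19, while Cbx2 lies near 0 and Six4 above it.

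Sequences upstream of the start were in the RefSeq table for 4 of the 9 genes, on GRCm38.p6. In the values above Emx2 and Nr0b1 stood lower in male than in female somatic cells. Six4 stood higher in the male library of both fractions, and Lhx9 was nearly level between the somatic libraries. The 4 sequences are shown because none was found for the other members, and were not chosen for these sex patterns. Each is the 250 bases before the most upstream listed start, 5′ to 3′ on the gene's strand, for Emx2 chr19:59458440-59458689 (plus strand), Nr0b1 chrX:86191525-86191774 (plus), Six4 chr12:73113426-73113675 (minus) and Lhx9 chr1:138842445-138842694 (minus). Capitals mark CCAAT (bound by NF-Y), AGGTCA (the core of a nuclear receptor site) and TATAAA (bound by the TATA-binding protein), each searched on both strands.
Emx2: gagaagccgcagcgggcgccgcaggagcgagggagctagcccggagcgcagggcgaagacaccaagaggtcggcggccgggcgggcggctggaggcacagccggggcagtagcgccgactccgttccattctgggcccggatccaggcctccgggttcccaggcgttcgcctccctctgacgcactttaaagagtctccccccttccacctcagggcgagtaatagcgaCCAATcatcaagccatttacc
Nr0b1: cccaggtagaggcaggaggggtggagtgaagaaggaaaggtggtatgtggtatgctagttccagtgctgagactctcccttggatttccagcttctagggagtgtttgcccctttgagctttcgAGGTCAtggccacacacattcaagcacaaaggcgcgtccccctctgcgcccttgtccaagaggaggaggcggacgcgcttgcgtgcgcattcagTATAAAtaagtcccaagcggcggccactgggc
Six4: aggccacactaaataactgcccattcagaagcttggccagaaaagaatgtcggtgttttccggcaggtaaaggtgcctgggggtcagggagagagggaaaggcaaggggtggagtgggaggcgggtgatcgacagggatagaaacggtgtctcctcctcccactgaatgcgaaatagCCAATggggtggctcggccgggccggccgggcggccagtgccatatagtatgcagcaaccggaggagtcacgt
Lhx9: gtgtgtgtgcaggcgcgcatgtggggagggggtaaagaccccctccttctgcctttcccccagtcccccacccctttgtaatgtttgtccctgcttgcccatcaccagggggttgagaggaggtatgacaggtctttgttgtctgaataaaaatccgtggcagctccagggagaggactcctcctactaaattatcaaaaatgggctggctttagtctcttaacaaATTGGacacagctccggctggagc

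Emx2 holds CCAAT at positions -21 to -17 before its start and Six4 at -73 to -69, while Lhx9 holds it on the opposite strand (as ATTGG) at -24 to -20. Of all 32851 upstream sequences of this length, 33.9% hold it. Nr0b1 holds AGGTCA at -126 to -121, as do 14.0% of all, and TATAAA at -32 to -27, as do 12.4%. These 3 motifs were added after the sequences had been read. Every motif was searched as an exact string, so variant forms of a site were not counted. None of the 4 holds AGATAA (bound by GATA factors, in 9.99% of all), AAGGTCA (the extended NR5A1 half-site, 4.08%, which contains the nuclear receptor core named above), TAATTA (homeodomain proteins, 4.84%), GCGTGGG (shared by WT1 and EGR1, 4.30%) or TCAGGTT (SIX4, 3.49%). Emx2 was the richest in G and C, with 67.2% and 24 CpG in 250 bases, and Lhx9 the poorest, with 53.6% and 4 CpG, where the median over all was 52.4%.

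The calls rested on both somatic libraries and on the filter. Without the male somatic library none of the 5 passed (limma adjusted p from 0.0638 to 0.127), and without the female somatic library none did either (0.0712 to 0.138), while their log2 differences stayed between -6.46 and -4.70. Wt1 was also lost without the female germ library (adjusted p = 0.0586), and all 5 passed without the male germ library (0.0385 to 0.0478). When no gene was left out for low values, 0 of 18703 passed (4625 at an unadjusted p under 0.05), and the 5 had adjusted p from 0.0637 to 0.0685.

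Within each sex, the germ level of the 5 called genes was a small share of the somatic level, as their calls as lower already require. It was 2.05% for Nr5a1, 3.12% for Wt1, 2.46% for Gata4, 1.74% for Zfpm2 and 1.81% for Lhx9 in male libraries. In female libraries it was 2.24%, 1.09%, 2.64%, 1.55% and 0.704% in the same order. Emx2 stood at 2.15% in male and 2.92% in female libraries, and Nr0b1 at 21.9% in male and 2.29% in female libraries. Marker genes of somatic cells at 5 SPM or more in the somatic library also had signal in the germ libraries. Stroma markers had a median of 1.22% in male and 0.761% in female libraries (10 genes in each). Sertoli markers had 4.97% in male libraries (14 genes, from 2.56% to 222%). Pregranulosa markers had 5.60% in female libraries (9 genes, from 2.21% to 45.3%). In males 13 of the 14 Sertoli markers lay below their somatic level, and Dmrt1 lay above it, at 36.25 against 16.4 SPM. Dmrt1 was also higher in female germ (8.53 SPM) than in female somatic cells (0.282 SPM). Of the Sertoli markers Cst9 was listed at 0 in female germ cells, but it was also low in female somatic cells (1.54 SPM). In male germ cells Cst9 stood at 9.12 SPM, against 182 SPM in male somatic cells. Of the pregranulosa markers Foxl2 was listed at 0 in male germ cells, with 0.177 SPM in male somatic cells. In female germ cells Foxl2 stood at 0.503 SPM, against 8.97 SPM in female somatic cells. The part of somatic RNA carried into the germ fraction in these germ levels was not tested. Cbx2 and Six4 lay above all these medians, at 142% and 286% in male and 50.5% and 110% in female libraries. In male libraries Nr0b1 also lay above the stroma and Sertoli medians. It lay below the endothelial (32.2%, 6 genes) and pregranulosa (59.4%, 4 genes) medians there. Its value rests on 18 germ and 52 somatic fragments, at 3.13 SPM in male somatic cells, below the 5 SPM asked of markers. The 5 called genes and Emx2 lay between the stroma and Sertoli medians in male libraries. In female libraries Lhx9 lay just below the stroma median. Nr5a1, Wt1, Gata4, Zfpm2, Emx2 and Nr0b1 lay there between the stroma and pregranulosa medians.

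**Figure D3:**
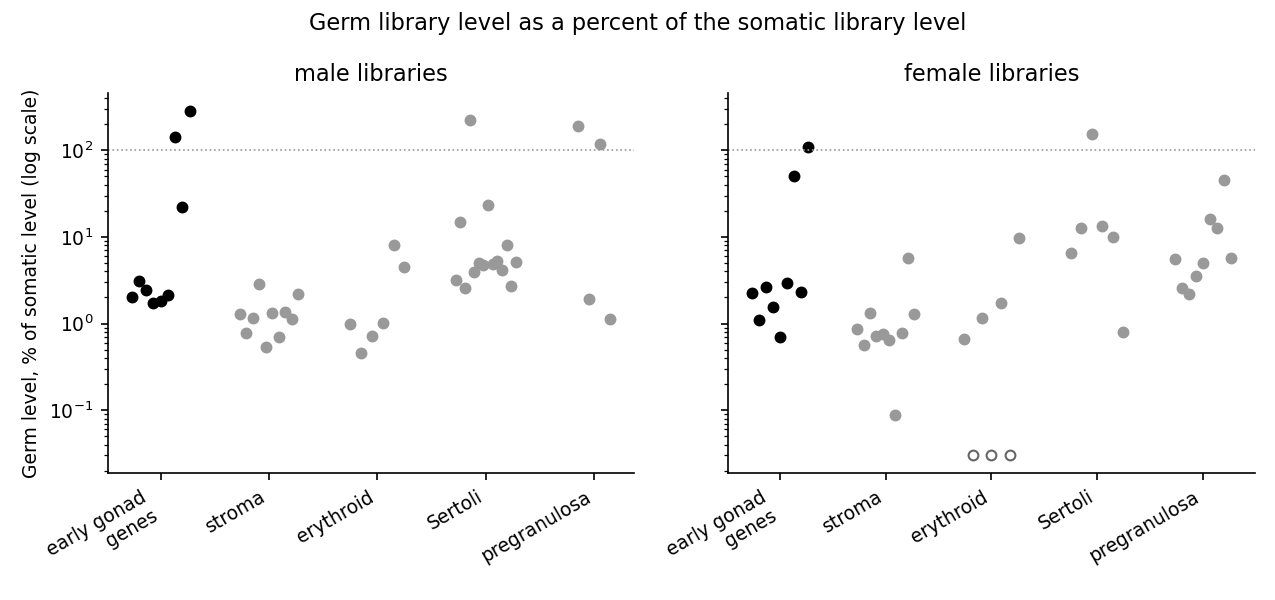
Level in the germ library as a percent of the level in the somatic library of the same sex (log axis), 1 point per gene, for the 9 early gonad genes (black) and for marker genes of somatic cell types at 5 SPM or more in that somatic library (grey). Open circles at the bottom are genes listed at 0 in the germ library. In each sex 2 black points, Cbx2 and Six4, lie at 50.5% or more, and Nr0b1 lies at 21.9% in the male libraries.

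By the size rule used for single libraries, at least 4-fold with at least 5 SPM in the higher library, 6 of the 8 genes that reached 5 SPM were lower in male germ than in male somatic cells, where 18.4% of all genes were. In the female libraries 7 of 9 were lower, where 23.6% of all genes were. Wt1, Zfpm2, Lhx9 and Emx2 in both sexes, and Nr0b1 in females, reached 5 SPM in the somatic library alone. For them the rule could call only a lower germ level, so these calls are no separate support. Wt1 was 32.01-fold lower in male germ cells (95% counting interval 25.9 to 40.0) and 91.4-fold lower in female germ cells (72.0 to 118). Lhx9 was 55.3-fold (44.3 to 69.8) and 142-fold lower (92.1 to 246) in the same order. Cbx2 was 1.42-fold higher in male germ than in male somatic cells (1.30 to 1.54) but 1.98-fold lower in female germ than in female somatic cells (1.75 to 2.24).

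Levels can be compared between genes only after division by length, here the listed length, and are then in SPM per kb. In male somatic cells Nr5a1 led with 109 SPM per kb, followed by Gata4 with 64.9, Wt1 with 34.8 and Lhx9 with 29.2 SPM per kb. In female somatic cells Wt1 led with 118 SPM per kb, followed by Nr5a1 with 94.1, Gata4 with 81.5 and Lhx9 with 27.3 SPM per kb. The same 4 genes thus filled the first 4 places in both sexes, and of these 4 Wt1 alone moved by more than 1 place. Emx2 was at place 7 in male and place 5 in female somatic cells. Zfpm2 had 12.5 and 12.4 SPM per kb in male and female somatic cells, and Cbx2 12.2 and 10.7 SPM per kb. Their places are not separable from each other, since they swap in male somatic cells when the longest annotated transcript is used as the length. Six4 was last in female somatic cells with 1.42 SPM per kb and Nr0b1 last in male somatic cells with 1.74 SPM per kb. In germ cells Cbx2 led in both sexes, with 17.3 SPM per kb in male and 5.40 in female germ cells, and Six4 was next in male germ cells with 10.6 SPM per kb. Nr5a1 in male somatic cells stood above 97.1% of all genes with signal, and Wt1 in female somatic cells above 97.6%.

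Between male and female somatic cells, Nr5a1, Gata4, Zfpm2, Lhx9 and Cbx2 differed by less than 1.5-fold, Wt1, Emx2 and Nr0b1 were lower in male somatic cells, and Six4 was higher there. With 1 library per sex there is no test, and intervals cover counting error only. The size rule was met by 2 of the 9, both lower in male somatic cells, where 3.17% of all genes were lower and 3.0% higher. The median log2 difference was 0.02 over the 9 genes and 0.01 over all genes.

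Emx2 was 6.70-fold lower in male somatic cells (5.68 to 7.89), on 163 fragments in male and 1640 in female somatic cells. Nr0b1 was 4.96-fold lower in male somatic cells (3.71 to 6.77), on 52 and 389 fragments. It reached the level minimum in the female somatic library alone, so the rule could only call it lower in males. Wt1 was 3.40-fold lower (3.23 to 3.57), short of the 4-fold limit. Six4 stood 2.60-fold higher in male somatic cells (2.18 to 3.12). These 4 genes are those whose sex difference passed 2-fold.

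Gata4 was 1.26-fold lower in male somatic cells (1.21 to 1.31), Nr5a1 1.15-fold higher (1.11 to 1.197) and Cbx2 1.14-fold higher (1.04 to 1.26). Lhx9 was 1.07-fold higher (1.02 to 1.12) and Zfpm2 1.01-fold higher (0.936 to 1.10), but both turned to lower in male somatic cells, at -0.03 and -0.11 on the log2 scale, when library totals were used without scaling factors (the median of all genes then stood at -0.12), and Zfpm2 did so under upper-quartile scaling too, at -0.02.

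The cell types behind the somatic fraction also differed between the sexes. Sertoli markers summed to 1118 SPM in male and 110 SPM in female somatic cells, with none of the 14 at 0 in either, and 8 of the 14 were higher in male somatic cells by the size rule. Pregranulosa markers summed to 230 SPM in the male somatic and 1099 SPM in the female somatic library, with Irx3 and Irx5 at 0 in males, and 7 of the 9 were lower in male somatic cells by the size rule. These sums rest on few genes: Nr2f2 (123 SPM in male against 34.7 SPM in female somatic cells) and Wnt4 (85.6 against 136 SPM) make up most of the male sum, and Fst (7.43 against 704 SPM) most of the female sum. Nr2f2 is also a stroma marker, and Nr2f2, Wnt4, Rspo1 and the stroma marker Tcf21 are also on the list of other gonad regulators. Stroma markers summed to 17020 SPM in male and 6330 SPM in female somatic cells. Their part in the sex differences of Wt1, Emx2, Nr0b1 and Six4 was not tested.

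**Figure D4:**
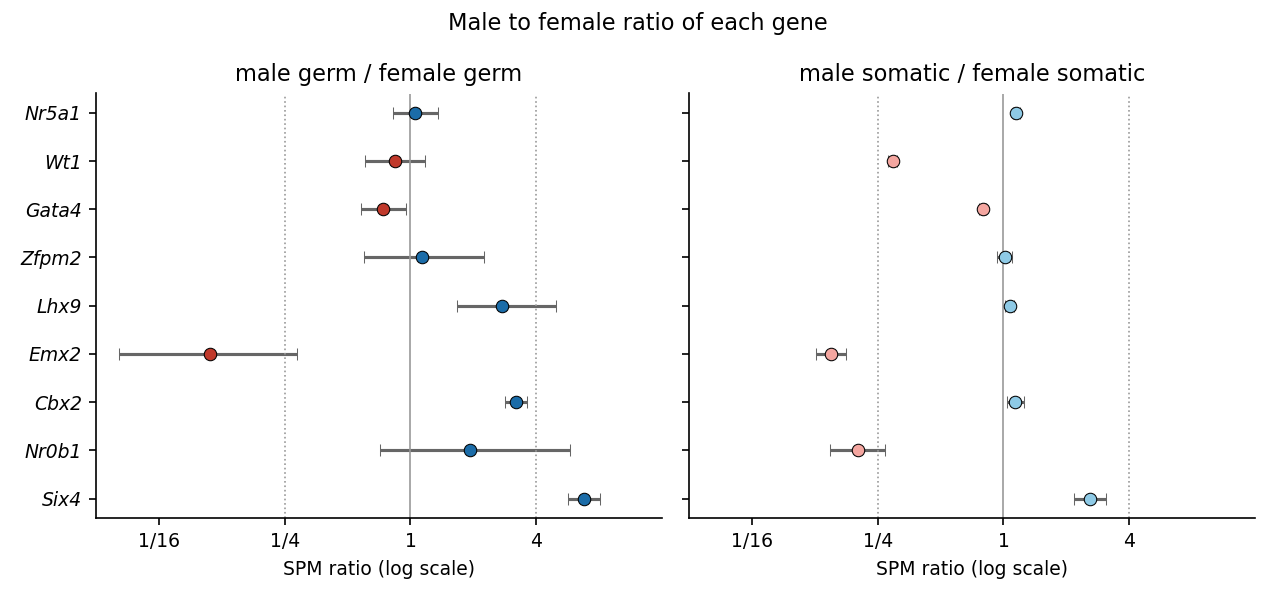
Ratio of SPM in the male to the female library for each gene, in germ cells (left) and in somatic cells (right), on a log axis with exact conditional 95% counting intervals and dotted lines at 4-fold. Emx2 lies beyond the dotted line towards female in both panels, Nr0b1 in somatic cells, and Six4 lies towards male in both.

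Relative levels within 1 library do not depend on scaling between libraries, so the regulators were also set against Nr5a1 per kb. For each 100 units of Nr5a1, Nr0b1 stood at 1.60 in male somatic cells (1.195 to 2.105) and 9.19 in female somatic cells (8.27 to 10.2). Wt1 stood at 32.1 in male somatic cells (30.4 to 33.8) and 126 in female somatic cells (122 to 130). Emx2 stood at 3.46 in male (2.95 to 4.05) and 26.7 in female somatic cells (25.3 to 28.2). Gata4 stood at 59.7 in male (57.3 to 62.3) and 86.6 in female somatic cells (83.8 to 89.5). Of the 5 compared, Lhx9 differed least, at 26.9 (25.7 to 28.1) in male and 29.0 (27.9 to 30.1) in female somatic cells. For the pair that forms the GATA4 complex, Zfpm2 stood at 19.3% of Gata4 per kb in male (18.0 to 20.7) and 15.2% in female somatic cells (14.4 to 16.04).

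**Figure D5:**
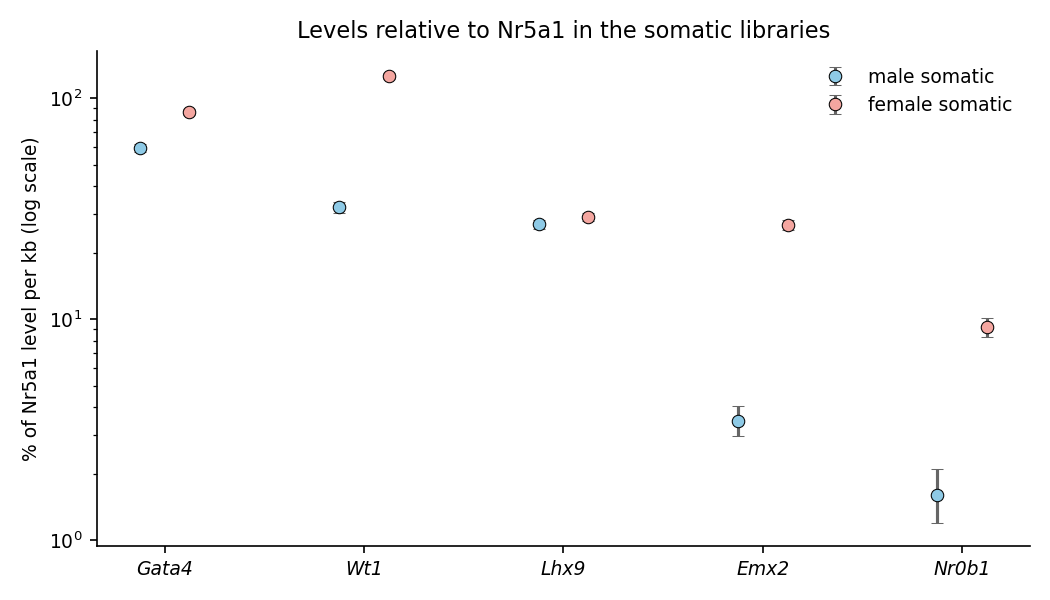
Level per kb of 5 regulators as a percent of the Nr5a1 level per kb in the same somatic library, on a log axis with exact conditional 95% counting intervals. The Lhx9 points lie close together, while Gata4, Wt1, Emx2 and Nr0b1 lie lower in male somatic cells.

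Male and female germ cells were compared in the same way. Six4, Cbx2 and Lhx9 stood higher in male germ cells and Emx2 lower, while Nr5a1, Wt1, Zfpm2 and Nr0b1 did not differ beyond counting error. Of the 4 genes that reached 5 SPM in a germ library, Six4 alone met the size rule, higher in male germ cells, where 14.0% of all genes were higher and 10.0% lower. Six4 stood 6.77-fold higher (5.71 to 8.08) and Cbx2 3.20-fold higher (2.84 to 3.60) in male germ cells. Lhx9 was 2.75-fold higher in male germ cells (1.68 to 4.998) on 81 and 18 fragments. Emx2 was 9.10-fold lower in male germ cells (3.51 to 24.9), below the level minimum of the rule. Gata4 was 1.35-fold lower (1.05 to 1.72). The ratio was 1.05 for Nr5a1 (0.823 to 1.36), higher in male germ cells, and Wt1 was 1.19-fold lower there (0.852 to 1.65), or 0.02 higher on the log2 scale under upper-quartile scaling, where the median of all genes stood at 0.24. Zfpm2 was 1.14-fold (0.597 to 2.24) and Nr0b1 1.93-fold higher (0.715 to 5.79) in male germ cells, both on few fragments. The stroma markers were likewise higher in male than in female germ cells, at 221 against 62.0 SPM, and their part in the Lhx9 difference was not tested.

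Genes whose profile over the 4 libraries was nearest to each regulator were found by the Euclidean distance between centred log2(SPM + 0.5) profiles among genes at 5 SPM or more in a library. Nr5a1 and Zfpm2 were each other's nearest gene of 13255 compared, at a distance of 0.16. Next to Nr5a1 came Syde1, a GTPase-activating protein gene, at 2.04 SPM in the male germ and 1.55 SPM in the female germ library, against 106 SPM in the male somatic and 97.3 SPM in the female somatic library. Nearest to Gata4 was Maf, a transcription factor gene, at a distance of 0.08, with 0.695 SPM in the male germ and 1.08 SPM in the female germ library, against 45.1 SPM in the male somatic and 52.5 SPM in the female somatic library. Wt1 lay nearest to Adamts19, a secreted metalloproteinase gene (distance 0.21), with 5.22 SPM in the male germ and 6.78 SPM in the female germ library, against 161 SPM in the male somatic and 483 SPM in the female somatic library.

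Lhx9 lay nearest to Vim, the vimentin gene, at 0.38, and Emx2 to Kctd14 at 0.35, so these profiles had no close match. Cbx2 lay nearest to Vav3, a guanine nucleotide exchange factor gene, at 0.07, with 24.6 SPM in the male germ and 7.90 SPM in the female germ library, against 17.8 SPM in the male somatic and 16.2 SPM in the female somatic library. Nr0b1 lay nearest to Edn2, the endothelin 2 gene (0.14), and Six4 to Peli2, a ubiquitin ligase gene (0.29). The second places went to Bace2, Gria3, Nrn1, Igfbp4, Sorbs2, Tomm40, C1rl and Spata13. With 4 libraries such distances are descriptions only.

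Other regulators of gonad formation were read from a list of 17 genes. Of the 16 tested, 4 were lower in germ cells and 0 higher, where 5.56% of all tested genes were lower and 2.50% higher, and the median log2 difference was -2.28, against -0.11 over all genes. Tcf21, a stromal repressor gene, fell by 6.62 ± 0.84 (SE; limma adjusted p = 0.0336), with 1.39 SPM in the male germ and 0.572 SPM in the female germ library, against 256 SPM in the male somatic and 75.9 SPM in the female somatic library. Wnt4, the ovarian pathway ligand gene, fell by 5.30 ± 0.64 (limma adjusted p = 0.0336), Nr2f2 by 4.93 ± 0.84 (0.0386) and Gata6 by 4.80 ± 0.85 (0.0414). Gata6, a relative of Gata4, stood at 1.52 SPM in the male germ and 4.33 SPM in the female germ library, against 49.1 SPM in the male somatic and 152 SPM in the female somatic library. Between somatic cells, Rspo1, the R-spondin gene of the ovarian pathway, was 11.8-fold lower in males (9.89 to 13.96) and the only member past the size rule.

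Of 19 close relatives of the 9 genes, 15 were tested, 2 were lower in germ cells and 0 higher, beside the same 5.56% and 2.50% of all genes, with a median log2 difference of -0.16. The 2 were Gata6 and Cbx6, a Polycomb gene that fell by 2.52 ± 0.42 (limma adjusted p = 0.0381). Between the germ libraries Nr5a2, the paralog of Nr5a1, was 8.64-fold higher in males (6.02 to 12.9), Gata2 20.2-fold lower (12.8 to 33.6) and Six5 4.52-fold lower (3.42 to 6.01). Between the somatic libraries Gata1, a blood cell factor gene, was 7.85-fold lower in males (4.85 to 13.5). Of the 9 erythroid markers Klf1, an erythroid factor gene, met the size rule, 13.01-fold lower in males (7.11 to 26.4), while the sum of the list was higher there (30210 against 11190 SPM). The part of blood cells in the Gata1 difference was not tested.

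Among 11 known target genes of NR5A1, 9 were tested. Of these, 1 was lower in germ cells and 0 higher, where 5.56% of all tested genes were lower and 2.50% higher. All 9 had negative log2 differences, as did 7505 of the 14148 genes tested. Their median was -2.73, against -0.11 over all genes. The called gene was Amhr2, the receptor gene for anti-Müllerian hormone, which fell by 5.23 ± 0.97 (limma adjusted p = 0.0442). While Nr5a1 differed by 1.15-fold between male and female somatic cells, 4 of the 10 targets at 5 SPM or more were higher in males by the size rule and 1 was lower, where 3.0% of all genes were higher and 3.17% lower. Amh was 719-fold higher (372 to 1427), Cyp11a1 192-fold (127 to 322), Cyp17a1 60.5-fold (51.5 to 71.5) and Insl3 133-fold (30.8 to 942). Amh, Cyp11a1 and Insl3 reached 5 SPM in the male somatic library alone, so the rule could only call them higher there. Amhr2 was 5.35-fold lower in male somatic cells (5.09 to 5.63), at 104 against 557 SPM. Between the germ libraries 4 of the 8 targets at 5 SPM or more, Amh, Cyp11a1, Cyp17a1 and Hsd3b1, were higher in males, where 14.0% of all genes were, by 7.29-fold for Amh (4.60 to 12.1) and 15.3-fold for Hsd3b1 (8.08 to 34.6). These 4 reached 5 SPM in the male germ library alone, so the rule could only call them higher there. The female germ library lists Cyp11a1 and Cyp17a1 at 0, so that male germ cells were at least 49.5-fold and 115-fold higher against a floor of 3 fragments. Fetal Leydig markers, which share Star, Cyp11a1, Cyp17a1, Hsd3b1 and Insl3 with the targets, summed to 63.6 SPM in the male germ and 11.9 SPM in the female germ library, against 820 SPM in the male somatic and 97.3 SPM in the female somatic library, and their part in the target differences was not tested. Amh is also 1 of the 14 Sertoli markers.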

How the data were processed

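The deposited values are a read signal per gene in whole numbers. The file headers call it counts, but values up to 60 gather at multiples of 4.10 (male germ, female somatic), 6.07 (female germ) or 6.11 (male somatic): 43.1% to 54.3% of them lie there, against 15.0% to 23.3% of whole numbers. The values were therefore taken as scaled and rounded by the authors, with 1 step worth 1 fragment. Since the rest lie off these steps, fragment numbers, floors and counting intervals are estimates. Per the submitters' processing notes CASAVA 1.9, TopHat 1.2.0, edgeR and mm9 were used, with no role given. Counting program, annotation and strand use were not stated in any source used. Of 20373 rows, 74 exact repeats were removed. Signal was divided by library totals times trimmed-mean factors (0.945 to 1.07) and given as SPM.

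Germ against somatic was fitted with limma 3.58.1 in R 4.3.3 on log2(SPM + 0.5), with a variance trend, over genes at 1 SPM or more in 2 libraries. Adjustment was by Benjamini-Hochberg over all genes (threshold 0.05), and the procedure was tested on simulated data. No label names separate animals, so a p-value reflects the spread between these libraries alone. Single libraries were compared by ratio, with exact conditional binomial 95% intervals. Intervals and floors cover counting error only, and PCR copies could not be told apart. Alternatives were other scalings, pseudocounts, filters, size limits, gene lengths, a term for sex and each library left out.

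Named genes were the 9 members, the 2 nearest profiles of each, the neighbour Nr6a1, and list genes that passed the fit or the size rule (up to 4 per comparison). Single markers were named after their values were seen, and some list genes are not reported here. Members and lists were chosen with earlier results of these data known. Upstream sequences are from RefSeq, exon overlaps and transcript lengths from GENCODE vM21, both on GRCm38, and no coordinate was converted.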

Additional observations from a re-analysis of the deposited data

Results flagged for a closer look

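Among the 9 regulators, Cbx2 went opposite ways in the sexes: germ cells were higher than somatic cells in males (log2 0.50) and lower in females (-0.97), a difference of 1.46. The difference was not tested, since each group is 1 library, and the same holds for the genes that follow.

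Nr5a2, the paralog of Nr5a1, stood at 16.1 SPM in the male germ and 1.86 SPM in the female germ library, against 0.748 SPM in the male somatic and 3.95 SPM in the female somatic library, so both the germ to somatic and the male to female contrast turned, by 4.65 on the log2 scale. Gata2 stood at 0.750 SPM in the male germ and 15.1 SPM in the female germ library, against 2.62 SPM in the male somatic and 2.32 SPM in the female somatic library (-3.79). Amh was lower in male germ (8.70 SPM) than male somatic cells (273 SPM) but higher in female germ (1.19 SPM) than female somatic cells (0.380 SPM), a difference of -5.84. Rspo1 was higher in males between germ cells (10.01 against 3.54 SPM) and lower in males between somatic cells (8.57 against 101 SPM), a difference of 4.86. Gata1 did likewise, with 1.70 against 0.789 SPM in germ cells and 1.08 against 8.49 SPM in somatic cells (3.28).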

How the results depend on the processing

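Over all genes tested with limma, 354 passed as higher and 786 as lower in germ cells. Adding a term for sex (the replicate block) gave 1094 and 1955, and 7 of the 9 regulators passed in place of 5. With no filter on low values 0 genes passed in either direction (4625 at an unadjusted p under 0.05) and 0 regulators. Leaving out 1 library each, over the same 14148 genes, gave 37 to 1670 higher, 21 to 1927 lower and 0 to 5 regulators lower: the lowest counts came without the female somatic (37 and 37) and the male somatic library (43 and 21), the highest without the male germ library, and 820 were higher without the female germ library. The lone library of a cell type is then assumed to vary like the other. The log2 difference of Six4 ran from -0.53 without the male germ to 2.16 without the female germ library, and that of Cbx2 from -1.06 to 0.59 in the same order, none passing. Under other scalings and pseudocounts and a 5 SPM filter the same 5 regulators passed, with Emx2 and Nr0b1 outside in each run (Nr0b1 was not tested under the 5 SPM filter). Wt1, Zfpm2 and Lhx9 met the 5 SPM filter through their somatic libraries alone, so their calls under it are no separate support. Upper-quartile scaling moved the median of all genes from -0.11 to 0.04 for germ against somatic and from -0.07 to 0.24 for male against female germ cells. Between germ cells, 1649 genes were higher and 1180 lower in males by size, or 2103 and 861 under that scaling, 856 and 911 at 20 SPM, 3148 and 3094 at 2-fold and 5183 and 1690 with no level minimum. Between somatic cells, 355 and 375 were so, or 213 and 193, 1137 and 978, and 1369 and 1521 under the last 3 of these. At 2-fold, 2 regulators were higher in male than female germ cells, 1 in male than female somatic cells and 1 in male germ than male somatic cells. With no level minimum 1, Emx2, was lower in male germ cells, and at 20 SPM 1, again Emx2, was lower in male somatic cells. With lengths of the longest annotated transcript 4 regulators kept their place in the female germ order. Single-library ratios could not be tried with a library left out. Depth limits Emx2, Nr0b1 and Zfpm2 in germ cells and Lhx9 in female germ cells, which rest on 6 to 32 fragments.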
